A study of Drosophila melanogaster with 12 samples.

Results

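The clone G3 is a line of S2 cells with a deletion of 67 bp in *upSET* (CG9007 in the files), and its nascent RNA was compared here gene by gene with that of the parental S2 line. The members of the comparison were the 9612 genes, of 15998 in the files, that had at least 1 CPM on the sense strand in at least 2 of the 8 nascent-RNA libraries of the series. CPM is a read count scaled to the size of its library, as the unit of level used throughout. The genes were measured in 2 libraries of G3 and 2 libraries of S2. All libraries came from S2-DRSC, a male *Drosophila melanogaster* cell line derived from late embryos. In G3 the deletion takes away 5′ untranslated sequence, the start codon and 10 bp of coding sequence after it, and it is homozygous. The parental S2 line is wild type at *upSET*. Beside G3, values are given for the other *upSET* clones, A7, which carries separate 7 bp deletions near the start codon, and B2, in which a 1 bp deletion shifts the reading frame farther into the protein. Each mutant line is 1 clone made with CRISPR/Cas-9, whereas S2 is the population it was taken from, so that changes of the clone's own history and changes that follow the lesion cannot be told apart. The labels do not say whether the 2 libraries of a line came from separate cultures, and the p-values measure the spread between these libraries.

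*upSET* encodes a SET-domain protein that works with the histone deacetylase Rpd3 and the corepressor Sin3A. Histone deacetylases take acetyl groups off histone tails, and acetylated chromatin is usually the more readily transcribed. Nascent RNA, the RNA that is still held on chromatin by transcribing RNA polymerase, reports transcription more directly than steady-state mRNA does.

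The lesion of G3 lies at the first guide RNA target of the study, which is printed here because it places the mutation. The oligonucleotide table of the study puts this target on the minus strand of 3L from 14000954 to 14000976. The table names no assembly, and the position falls inside the extent of CG9007 in dm3, from 13995223 to 14013251. The capitals mark the PAM, the bases next to the target that Cas-9 needs:
guide target 1: aaccgagtcgtgactggacaTGG

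Sense counts came to 10425243 and 5427807 in the G3 libraries, against 8333319 and 5375494 in the S2 libraries, with replicate 1 the deeper in both lines. A gene with 3 counts has 0.295 and 0.583 CPM in the G3 libraries, against 0.348 and 0.529 CPM in the S2 libraries, which covers counting error only. Markers matched the hemocyte-like character for which S2 cells are known only in part. The GATA factor *srp* had 983 and 927 CPM in the G3 libraries, against 1143 and 995 CPM in the S2 libraries, and the peroxidasin *Pxn* had 406 and 677 CPM in the G3 libraries, against 808 and 791 CPM in the S2 libraries. By contrast *He* had no count in any of these libraries, and *nimC1* had at most 0.197 CPM in G3, against 0.580 CPM in S2. *Hml* had 6.59 and 9.91 CPM in G3, against 2.20 and 0.882 CPM in S2. *Sr-CI* had 6.39 and 1.17 CPM in G3, against 20.2 and 0.353 CPM in S2. The muscle, the fat body and yolk, and the testis markers had 4 genes each. They summed per cell type to at most 2.76 CPM in a G3 library, against at most 6.15 CPM in an S2 library. The 4 germline markers summed to 12.4 and 3.50 CPM in the G3 libraries, against 15.4 and 4.59 CPM in the S2 libraries. Of the neuronal and glial markers, *elav* and *moody* were transcribed in both lines, with *elav* at 65.9 and 65.9 CPM in G3, against 62.2 and 58.1 CPM in S2. The others, *brp*, *n-syb*, *Syt1* and *repo*, had at most 4.13 CPM in a G3 library, against at most 8.81 CPM in an S2 library.

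The gene counts of *upSET* itself were 464 and 461 CPM in the G3 libraries, against 544 and 567 CPM in the S2 libraries. They lay below S2 in both libraries, but the difference did not pass the test (log2 fold change -0.27 ± 0.12 (SE), adjusted p = 0.234). These counts cover the whole gene of 18029 bp and do not check a 67 bp lesion. In the same fit G3 was lower than each of the other clones, with 761 and 606 CPM in A7 (G3 minus A7 -0.56, adjusted p = 0.0406) and 665 and 679.9 CPM in B2 (G3 minus B2 -0.54, adjusted p = 0.0398).

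In all, 302 genes were transcribed more and 262 genes less in G3 than in S2, by edgeR's quasi-likelihood test with the replicate series as a block and an adjusted p under 0.05. The 564 genes are 5.87% of those tested, 3.14% higher and 2.73% lower. The rises were larger than the falls: 152 of the 302 rises and 81 of the 262 falls exceeded 1 on the log2 scale, and 68 rises and 34 falls exceeded 2. The median change was 1.01 among the rises and -0.77 among the falls, against -0.06 over all tested genes. In 280 of the rises and 238 of the falls both G3 libraries lay outside both S2 libraries, and over all tested genes 38.1% did so, 17.1% with G3 above and 21.1% with G3 below. Without the replicate block 58 genes were called, 33 higher and 25 lower (0.603% of those tested, 0.343% and 0.26%), and all 58 were among the 564. Leaving out 1 library gave 368 calls without the first G3 library, 263 without the second, 164 without the first S2 library and 226 without the second. The split depended on scaling. With library sizes alone 230 genes were higher and 466 lower, and with DESeq2 366 were higher and 181 lower.

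**Figure D1:**
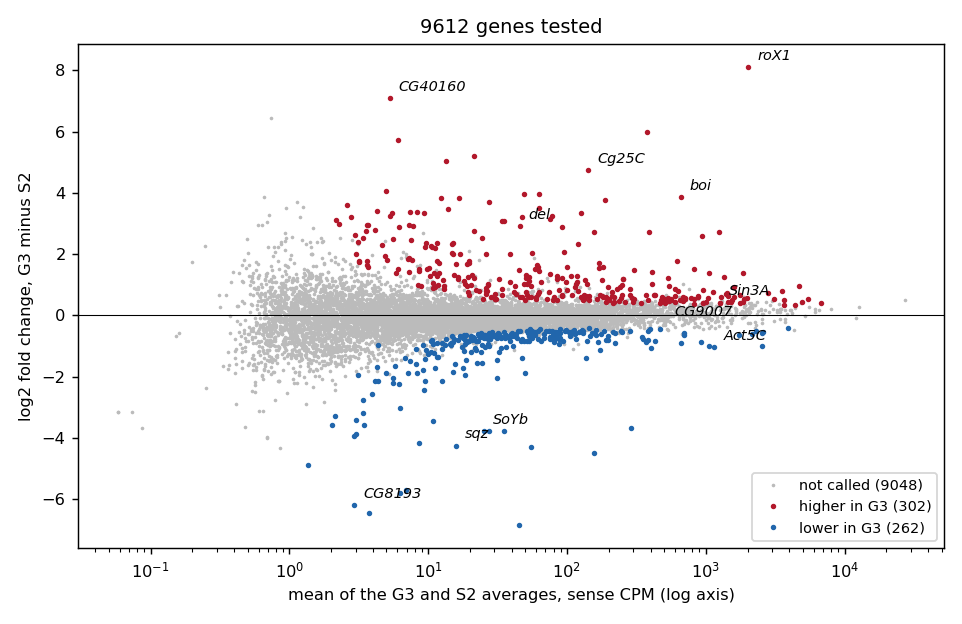
Each point is a tested gene, with the mean of its G3 and S2 averages in sense CPM on a log axis and its log2 fold change, G3 minus S2, on the vertical axis. Red points are the 302 genes higher in G3, blue points the 262 genes lower, and grey points the genes not called. *roX1* stands alone at the upper right, with high level and the largest rise.

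The largest rise was that of *roX1*, a noncoding RNA of the MSL complex, which binds the male X chromosome and raises its transcription in dosage compensation. *roX1* lies on X from 3752929 to 3756458 in dm3 and had 3864 and 4172 CPM in the G3 libraries, against 15.2 and 13.6 CPM in the S2 libraries. Both G3 libraries stood far above both S2 libraries, with a log2 fold change of 8.11 ± 0.61 (SE), adjusted p = 0.000257 (adjusted p = 0.00688 without the block). A7 had 316 and 146 CPM of it, B2 had 15.1 and 49.2 CPM, and G3 exceeded A7 by 4.10, adjusted p = 0.00479, and B2 by 7.04, adjusted p = 0.000539. Without the block these contrasts had an adjusted p of 0.0632 against A7 and 0.0153 against B2. *roX2*, the partner RNA, was not called, at 88.8 and 112 CPM in G3, against 114 and 174 CPM in S2 (log2 fold change -0.49, adjusted p = 0.137). None of the 7 protein genes of the dosage compensation list was called by edgeR or by DESeq2. At an unadjusted p under 0.05 edgeR had 2 of them, and 21% of all tested genes. The helicase gene *mle* had 107 and 119 CPM in G3, against 88.8 and 88.6 CPM in S2 (0.35, adjusted p = 0.132). The acetyltransferase gene *mof* was at -0.08, the limiting male subunit *msl-2* at -0.12, *msl-1* at -0.12 and *msl-3* at -0.19 on the log2 scale. The kinase gene *JIL-1* was at 0.29, and CG1832, which encodes the zinc-finger protein Clamp, at -0.02. Thus 1 of the 9 members of this list rose and none fell, 11.1% called against 5.87% of all tested genes.

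In the list of *upSET* and partners of Rpd3 and Sin3A, *Sin3A* was the only gene called of 15 tested, *upSET* among them. The list does not show that each member works with UpSET. *Sin3A* had 1418 and 1479 CPM in G3, against 1077 and 1091 CPM in S2 (log2 fold change 0.42 ± 0.10 (SE), adjusted p = 0.0443). The called share, 6.67%, is near the 5.87% of all tested genes. *Sin3A* was not called without the block, with library sizes alone or with any 1 library left out. The median of the list was -0.19, and with library sizes alone, which moved the median of all tested genes by a like amount, it was -0.31 and 3 other members were called lower. *Rpd3*, the deacetylase, had 49.1 and 62.0 CPM in G3, against 37.0 and 64.9 CPM in S2, and its libraries overlapped between the lines. The other members measured, *ebi*, *Smr*, *Hdac3*, *HDAC4*, *HDAC6*, *MTA1-like*, *Mi-2*, *Caf1*, *CoRest*, *Su(var)3-3*, *rgr* and CG14220, lay between -0.71 and 0.34 and did not pass the test. Of the 30 genes for heterochromatin proteins and H3K9 methylation, *rhi* and *crol* rose and none fell, a share of 6.67% that is near the 5.87% of all tested genes. *rhi* encodes Rhino, a relative of heterochromatin protein 1 that marks piRNA clusters, and had 20.7 and 30.5 CPM in the G3 libraries, against 5.33 and 4.06 CPM in the S2 libraries (2.37 ± 0.26 (SE), adjusted p = 0.00183). The zinc-finger gene *crol* differed much less (0.38), and it was not called without the block, with library sizes alone or with any 1 library left out, whereas *rhi* was. The structural and enzymatic genes of heterochromatin differed little in their measured levels: *Su(var)205*, which encodes heterochromatin protein 1, was at -0.13, and the H3K9 methyltransferase genes *Su(var)3-9*, *egg* and *G9a* were at 0.00, -0.22 and 0.27. *Su(var)3-7*, whose product binds heterochromatin protein 1, was at -0.30, and none of these 5 was called. The other 23 members were not called either: *wde*, *HP1b*, *HP1c*, *HP4*, *HP5*, *HP6*, *Lhr*, *Hmr*, *Su(var)2-10*, *Su(var)2-HP2*, *Su(z)12*, CG8290, *Kdm4A*, *Kdm4B*, *JHDM2*, *lid*, CG14438, *piwi*, *mei-W68*, *E(var)3-9*, *mod(mdg4)*, *XNP* and *D1*. They lay between -1.09 for *HP6*, which had few reads (1.87 and 0.194 CPM in G3, against 2.20 and 3.00 CPM in S2), and 0.49 for *Lhr*.

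The largest rises next to *roX1* were of genes that S2 transcribed little. CG40160 had 186 counts in G3, against a single count in S2, a ratio of 174 (exact 95% interval from 30.8 to 6890, for counting error only), and CG41378 had 684 and 809.8 CPM in the G3 libraries, against 17.973 and 3.71 CPM in the S2 libraries. Both lie in the heterochromatic scaffolds of dm3. The cytochrome P450 gene *Cyp12c1* had 174 counts in G3, against 3 in S2, a ratio of 54.1 (from 18.2 to 265). With the block the adjusted p was 0.0442 for CG40160, 0.000876 for CG41378 and 0.00494 for *Cyp12c1*. Without it CG40160 (adjusted p = 0.1605) and *Cyp12c1* (0.0594) were not called, and CG41378 was (0.0262). The sugar transporter gene *Slc45-1* had 43.9 and 39.6 CPM in the G3 libraries, against 1.28 and 0.882 CPM in the S2 libraries, a log2 fold change of 5.21 ± 0.30 (SE), adjusted p = 3.82e-05 that stood without the block (adjusted p = 0.00148). CG11828 had 22.3 and 30.1 CPM in G3, against 0.928 and 0.529 CPM in S2 (5.04, adjusted p = 0.000132). In each of these 5 genes every G3 library was above every S2 library, which was a condition for counting among the largest rises. CG11828 was also above A7 and B2, by 4.30 and 4.14, whereas CG40160, CG41378, *Cyp12c1* and *Slc45-1* did not differ from A7 beyond the threshold.

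The rest of the 20 largest rises included genes of unlike roles. *boi*, a Hedgehog co-receptor gene on X, had 1580.1 and 890.4 CPM in the G3 libraries, against 124 and 49.4 CPM in the S2 libraries (3.87 ± 0.26 (SE), adjusted p = 0.000127). It was higher still in A7, at 2739 and 2360.3 CPM, and near S2 in B2, at 52.1 and 46.5 CPM. *Octbeta2R*, which encodes an octopamine receptor, had 169 and 68.2 CPM in the G3 libraries, against 12.2 and 3.00 CPM in the S2 libraries (3.95 ± 0.25 (SE), adjusted p = 8.25e-05; adjusted p = 0.0728 without the block). G3 exceeded both other clones at this gene, since A7 had 11.6 and 5.69 CPM and B2 had 5.42 and 4.71 CPM. Without the block neither contrast was called (adjusted p = 0.168 against A7, 0.0919 against B2). The receptor tyrosine kinase gene *Alk* had 10.9 and 20.0 CPM in G3, against 2.20 and 0.353 CPM in S2 (3.38, adjusted p = 0.0105). *Kal1*, the fly relative of the human gene for the matrix protein anosmin, had 54.0 and 47.6 CPM in G3, against 4.41 and 3.35 CPM in S2 (3.69, adjusted p = 1.38e-05). The lipid genes *fu12* (*Agpat2*, an acyltransferase) and CG12512 (*Acsf2*, an acyl-CoA synthetase family member) rose by 3.47 and 3.85, and the cytoplasmic poly(A) polymerase gene *Gld2*, whose extent overlaps *SKIP*, by 3.41. The others of the 20 were CG3679, CG31601, CG17839, CG5973 and the unnamed transcript mgn00295, at 4.06, 3.83, 3.52, 3.37 and 3.96. Without the block *boi*, *Kal1*, CG3679 and CG17839 were still called. *Alk*, *fu12*, CG12512, *Gld2*, CG31601, CG5973 and mgn00295 were not, at an adjusted p between 0.0567 and 0.341. *Gld2* had 13.9 and 1.94 CPM in the G3 libraries, against 1.04 and 0.353 CPM in the S2 libraries.

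**Figure D2:**
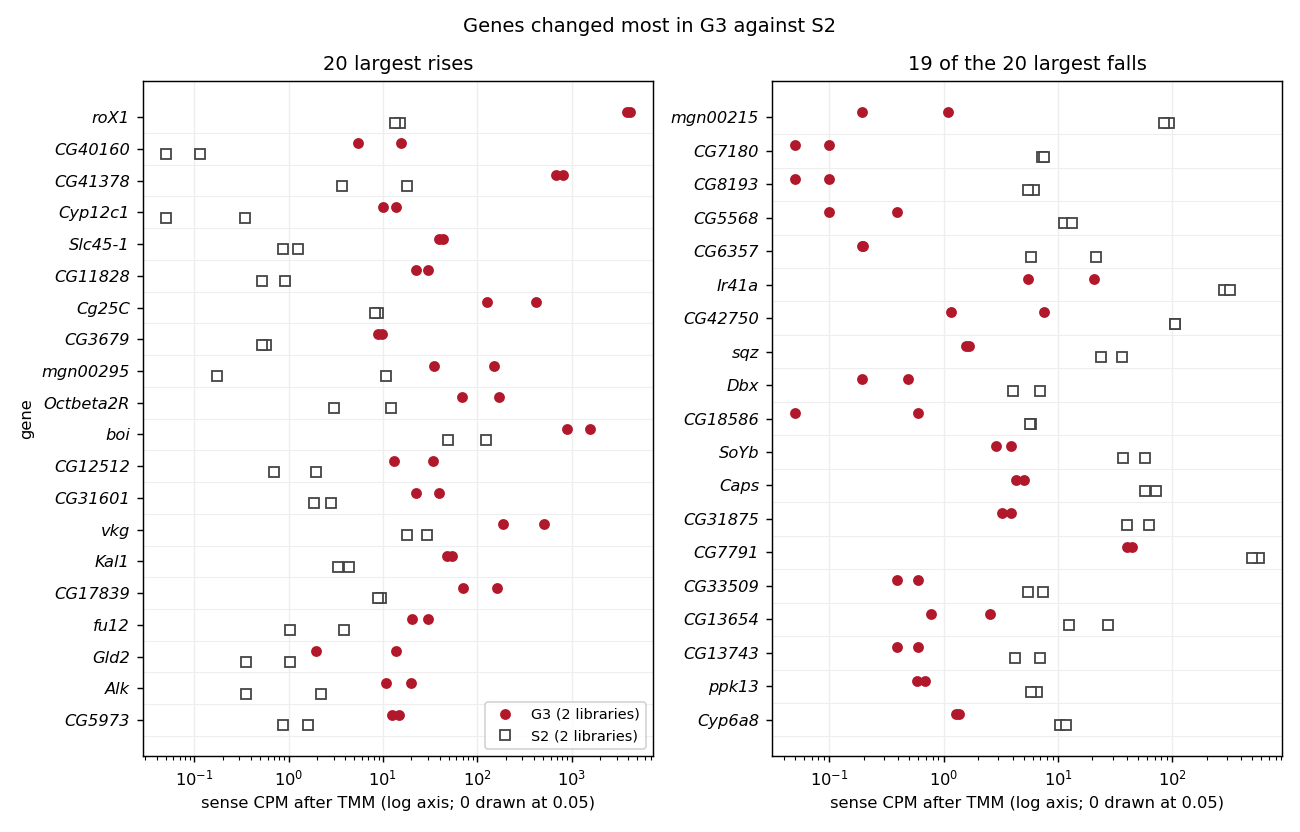
Sense CPM of the 20 largest rises (left) and 19 of the 20 largest falls (right) in every library, on a log axis with 0 drawn at 0.05. Filled circles are the 2 G3 libraries and open squares the 2 S2 libraries; at every gene shown the 2 lines do not overlap, which is a condition for being shown.

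The genes of both type IV collagen chains rose together. *Cg25C* (*Col4a1*) and *vkg* are neighbours on 2L and encode the chains that make up the collagen of basement membranes, which hemocytes secrete. *Cg25C* had 126 and 424 CPM in the G3 libraries, against 8.93 and 8.29 CPM in the S2 libraries (4.75 ± 0.39 (SE), adjusted p = 0.000397). *vkg* had 189 and 516 CPM in the G3 libraries, against 29.5 and 17.998 CPM in the S2 libraries (3.78 ± 0.44 (SE), adjusted p = 0.0024). Both genes were called without the block too, at an adjusted p of 0.0264 and 0.0262. In both, the second G3 library was the higher by far, so that the size of the rise is less certain than its direction. The other clones were above S2 too, with 162 and 219 CPM of *Cg25C* in A7, within the range of the G3 libraries, and 70.4 and 127 CPM in B2. Neither clone differed from G3 beyond the threshold.

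The rest of the matrix and adhesion genes did not follow the collagens. Of 31 tested genes of basement membrane and integrins, 4 rose and 5 fell, 29.0% against 5.87% of all tested genes, with a median of -0.02. Without the block 2 rose and 1 fell, and the median lay between -0.19 and 0.15 with 1 library left out. *mfas*, which encodes a secreted adhesion protein, had 77.3 and 6.61 CPM in G3, against 17.5 and 2.29 CPM in S2 (1.99, adjusted p = 0.0088); the lines overlapped, and G3 was above S2 within each replicate series. The falls were of the integrin genes *betaInt-nu* and *mew*, the matrix metalloproteinase gene *Mmp2*, the integrin ligand gene *Tig* and the laminin gene *LanB1*. *betaInt-nu* had 4.62 and 2.53 CPM in G3, against 19.7 and 6.18 CPM in S2 (-1.89, adjusted p = 0.0492), with both G3 libraries below both S2 libraries. *mew*, *Mmp2*, *Tig* and *LanB1* fell by 0.80, 1.00, 0.69 and 0.51 on the log2 scale, and *trol*, the perlecan gene, rose by 1.72; these 5 were picked out after their values were seen. Of 22 tested genes of hemocyte identity and phagocytosis, the collagens were the only members that rose and 3 fell. That is 22.7% called, against 5.87% of all tested genes, and without the block 2 rose and 1 fell. The engulfment receptor gene *nimC4* and the scavenger receptor gene *crq* fell, by 1.39 and 0.56, and at both the libraries of the lines overlapped. The extent of *nimC4* lies within that of *nAcRalpha-34E*, which fell by 1.27. The hemocyte gene that fell most was CG8193, which encodes prophenoloxidase 2, an enzyme of melanization. CG8193 had a single count in G3, against 84 in S2, a ratio of S2 over G3 of 90.0 (exact 95% interval from 15.7 to 3600). The other clones lay above G3 here, A7 with 43.1 and 28.4 CPM and B2 with 10.4 and 10.3 CPM.

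The piRNA pathway, by which short RNAs silence transposons mainly in the germline and ovary, had 5 members higher and 1 lower in G3 of 32 tested, 18.8% against 5.87% of all tested genes. The members that changed take part in different steps. *del* and *rhi* encode parts of one complex, which licenses transcription of piRNA clusters on both strands. *del* had 71.7 and 89.8 CPM in the G3 libraries, against 11.4 and 9.53 CPM in the S2 libraries, the rise with the smallest error of the group (2.91 ± 0.16 (SE), adjusted p = 3.39e-05). *AGO3* encodes a PIWI-family protein of the ping-pong cycle and had 752 and 586 CPM in the G3 libraries, against 148 and 61.9 CPM in the S2 libraries (2.73 ± 0.24 (SE), adjusted p = 0.000639). The Tudor-domain gene *BoYb* had 11.4 and 15.0 CPM in G3, against 2.55 and 0.353 CPM in S2 (2.94, adjusted p = 0.00994), and *tej*, another Tudor-domain gene picked out after its values were seen, had 17.8 and 15.5 CPM in G3, against 8.35 and 10.4 CPM in S2 (0.87, adjusted p = 0.0404). In contrast *SoYb*, a close relative of *BoYb*, had 2.85 and 3.89 CPM in the G3 libraries, against 37.1 and 57.7 CPM in the S2 libraries (-3.78 ± 0.16 (SE), adjusted p = 7.85e-06). The extent of *SoYb* overlaps that of CG31875, which fell by 3.78, and the counts of these 2 genes may share reads. Among the rises, *rhi* overlaps CG10936, and *AGO3* overlaps the unnamed transcripts mgn00284 and mgn00472. These neighbours were called higher too, and their counts may likewise share reads with *rhi* and *AGO3*. At *BoYb* the antisense counts rose as well, with a log2 fold change of 4.04. They were at 977 and 225 CPM of antisense reads in the G3 libraries, against 27.3 and 46.2 CPM in the S2 libraries. Whether the sense rise of *BoYb* is separate from this change on the other strand was not tested. *piwi* itself was hardly transcribed in either line, at 1.08 and 0.583 CPM in G3, against 1.97 and 0.176 CPM in S2. Without the block *del*, *rhi*, *AGO3* and *SoYb* were still called, with an adjusted p of 0.00148, 0.0209, 0.0463 and 0.00688. Leaving out any 1 library, or changing the scaling, left 4 or 5 rises and 1 fall.

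The other clones differed from G3 in single members of this pathway. *del* was high in all 3 clones, with 65.0 and 78.2 CPM for A7, and 54.6 and 55.7 CPM for B2. *rhi* was higher in G3 than in A7 (7.18 and 5.49 CPM, a difference of 1.92, adjusted p = 0.00634, and 0.0632 without the block). It was not separable from B2 (15.4 and 18.8 CPM). *SoYb* was lower in G3 than in A7 (52.1 and 77.1 CPM; -4.24, adjusted p = 5.54e-06) and in B2 (15.8 and 20.3 CPM; -2.42, adjusted p = 0.000297). These comparisons share the G3 libraries with that against S2.

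**Figure D3:**
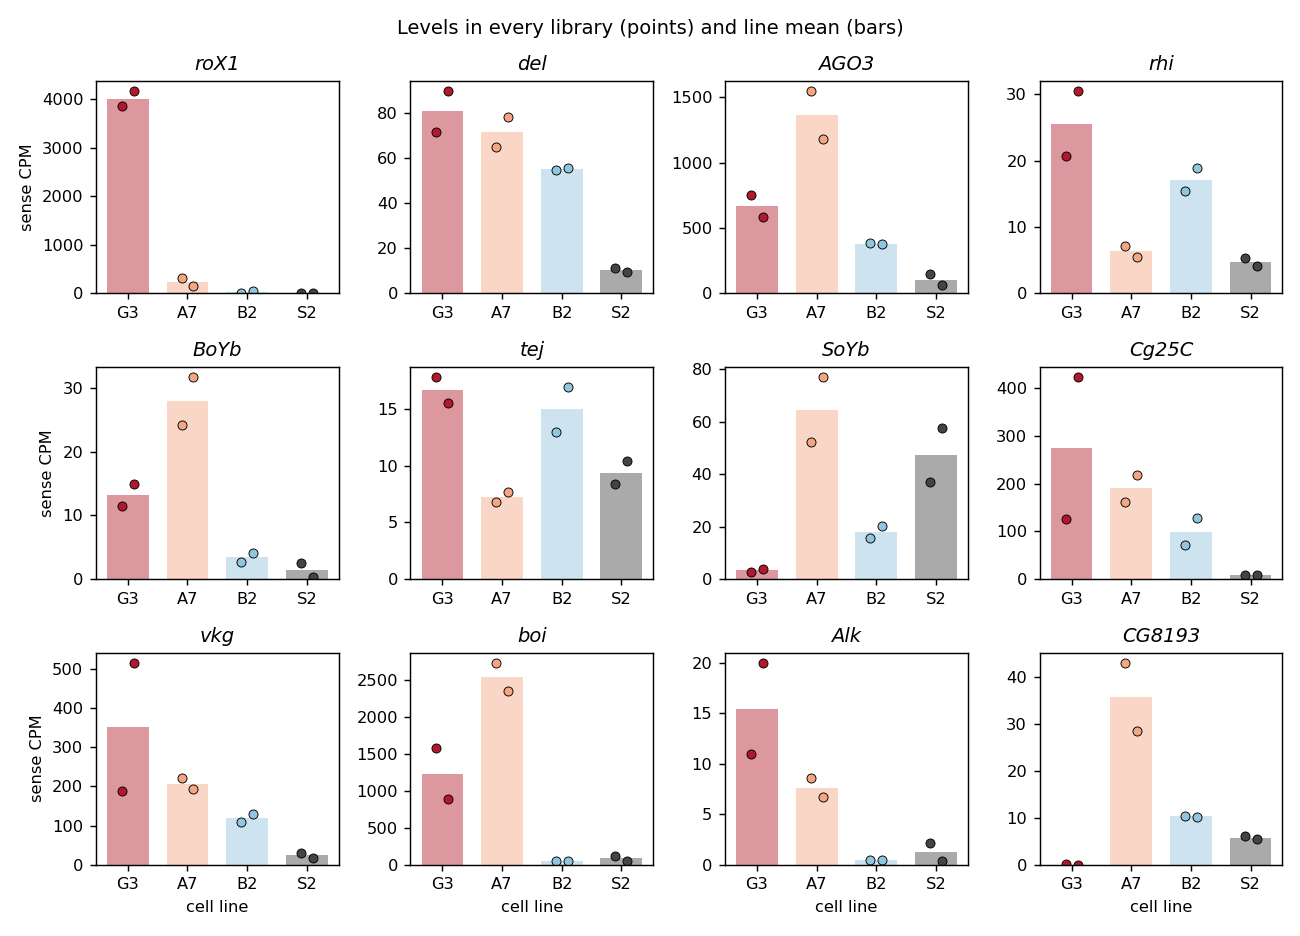
Sense CPM of 12 named genes in G3, A7, B2 and S2, with each library as a point and the line mean as a bar that starts at 0. *roX1* is highest in G3, *del*, *AGO3* and both collagen genes are above S2 in all 3 clones, *boi* is high in G3 and A7, and *SoYb* and CG8193 are lowest in G3.

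Genes of axon guidance and neuronal adhesion, which code for receptors and ligands that steer growing axons and hold cells together, had the most rises of the lists of genes with a known role. Of 70 tested, 12 rose and 1 fell, 18.6% against 5.87% of all tested genes. *Nrg*, which encodes neuroglian, an adhesion protein of the L1 family, had 163 and 117 CPM in the G3 libraries, against 22.5 and 8.12 CPM in the S2 libraries (3.23 ± 0.22 (SE), adjusted p = 0.000127). The semaphorin gene *Sema-1a* had 601 and 584 CPM in G3, against 210.5 and 236 CPM in S2 (1.42 ± 0.16 (SE), adjusted p = 0.00217). *lea* (*robo2*), a receptor gene for Slit, had 1722 and 1336 CPM in G3, against 627 and 552 CPM in S2 (1.37 ± 0.14 (SE), adjusted p = 0.00124), and *sli*, which encodes Slit itself, rose by 0.72. In these genes both G3 libraries were above both S2 libraries. A further 8 genes, *kirre*, *Ptp4E*, *caps*, *kek5*, *Ptp10D*, *unc-5*, *fra* and *Ten-a*, rose by between 0.35 and 0.69. They and *sli* were picked out after their values were seen. The member that fell was *Lapsyn*, with 2.66 and 0.971 CPM in G3, against 9.16 and 9.70 CPM in S2 (-2.21, adjusted p = 0.0184). The median over the list was -0.06, and it turned with single libraries, at 0.52 without the first S2 library, 0.20 without the first G3 library, -0.16 without the second G3 library and -0.20 without the second S2 library. With the filter at 5 CPM, which left 40 members, it was 0.34. None of the 13 was called without the block. Leaving out 1 library left between 4 and 9 rises and up to 4 falls, with 5 rises and 4 falls without the second S2 library.

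Over all tested genes, length went with the share of genes that rose. The lengths of the axon guidance genes as a set were not compared, and the part of length in their rises was not tested. Of 265 tested genes of at least 50000 bp, 44 rose (16.6%) and 7 fell (2.64%). Of 3523 genes under 2000 bp, 30 rose (0.852%) and 67 fell (1.9%). The median length was 11810.5 bp among the rises and 3117 bp among the falls, against 2791.5 bp over all tested genes. Level moved with the calls as well, since 112 of 1526 genes of at least 100 CPM in S2 rose (7.34%) and 73 fell (4.78%). The median log2 fold change differed little between the length classes, at 0.04 for the longest and -0.09 for the shortest, and the part of level in the length classes was not tested.

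**Figure D4:**
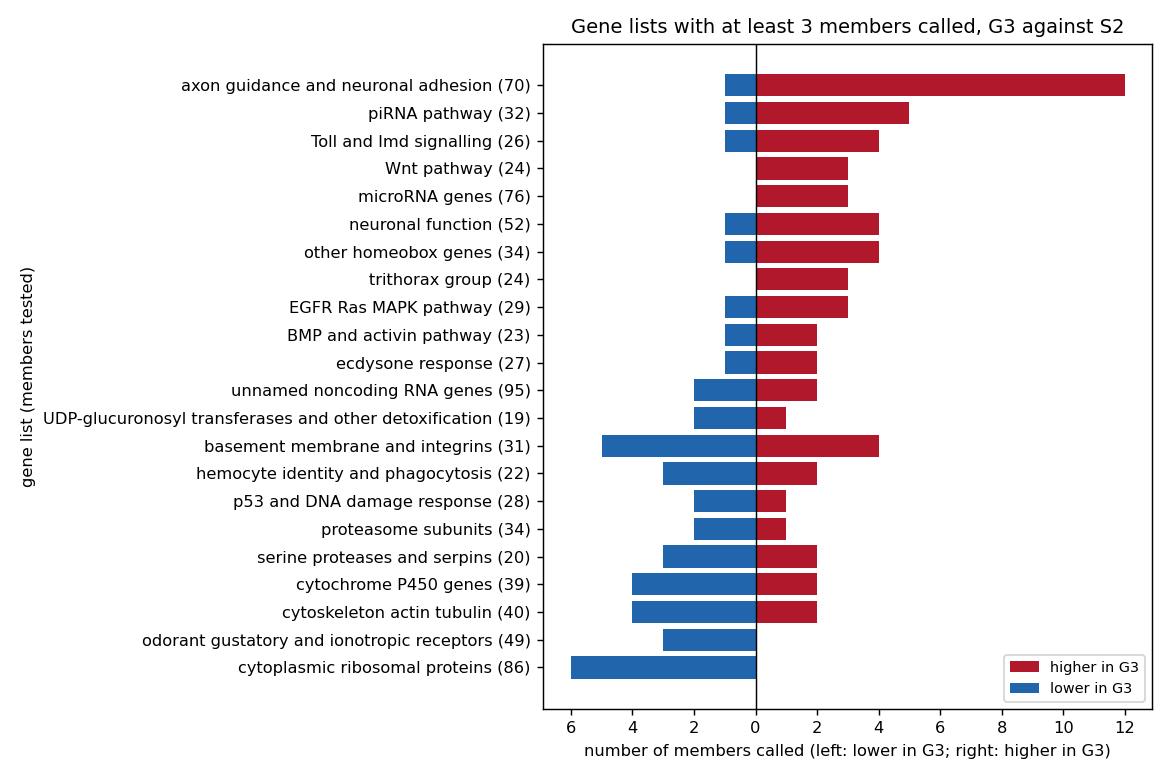
Number of members called in each gene list with at least 3 called members, lower in G3 to the left and higher in G3 to the right, with the number tested in parentheses. The axon guidance list has 12 rises and 1 fall of 70, the piRNA list 5 rises and 1 fall of 32, and the cytoplasmic ribosomal proteins 6 falls and no rise of 86.

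Signalling genes moved singly. In the Wnt list 3 of 24 rose (12.5%, against 5.87% of all tested genes called): the frizzled-family receptor gene *fz3*, with 27.3 and 30.5 CPM in G3, against 7.31 and 11.1 CPM in S2 (1.69, adjusted p = 0.00152), the receptor-like kinase gene *otk* (2.28) and the pathway inhibitor gene *nkd* (1.23). In the Toll and Imd list 4 of 26 rose and 1 fell (19.2%), and between 0 and 3 rose with 1 library left out. *spz*, the gene of the Toll ligand Spätzle, had 146 and 228 CPM in G3, against 83.6 and 98.1 CPM in S2 (1.02, adjusted p = 0.0127), the NF-κB gene *Dif* rose by 0.82 and the Toll-family receptor gene *Tollo* by 1.36, while the kinase gene *Tak1* fell by 0.54. None of the 6 tested antimicrobial peptide genes, which these pathways control, was called by edgeR or by DESeq2, and at an unadjusted p under 0.05 edgeR had 1 of them, against 21% of all tested genes. In the EGFR, Ras and MAPK list 3 of 29 tested genes rose and 1 fell (13.8%). The FGF gene *bnl*, the EGFR inhibitor gene *kek1* and the phosphatase gene *csw* rose by 1.27, 0.75 and 0.40, and *aos*, which encodes a secreted EGFR inhibitor, had 66.8 and 65.3 CPM in G3, against 321 and 96.2 CPM in S2 (-1.40, adjusted p = 0.0475). The glypican genes *dlp* and *dally*, co-receptors for several ligands, rose by 1.03 and 0.69, and the BMP receptor gene *sax* fell by 0.68. Of the ligands of the receptor Pvr, *Pvf1* was higher, with 10.2 and 26.03 CPM in G3, against 3.94 and 5.82 CPM in S2, and *Pvf3* lower, with 112 and 125 CPM in G3, against 229 and 206 CPM in S2. In the JAK/STAT pathway, with 12 genes tested (16.7% called), the receptor gene *dome* fell by 0.78 and the transcription factor gene *Stat92E* rose by 0.40. Of all these, none was called without the block.

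Among other regulators, 3 of 24 trithorax-group genes rose and none fell (12.5%, against 5.87% of all tested genes called): *Set1*, the H3K4 methyltransferase gene (0.57), *tna* (0.56) and the chromodomain remodeler gene *kis* (0.34). In the Polycomb list of 22 tested genes *ph-p* rose (1.52) and *jing* fell (-0.78), 9.09% called. Of 34 homeobox genes outside the Hox and segmentation list, 4 rose and 1 fell (14.7%). None of the trithorax, Polycomb or homeobox genes was called without the block, and trithorax genes were called in 1 of the 4 fits with 1 library left out, 2 of them without the first G3 library. The homeobox rises included *ct*, with 7155 and 5259.5 CPM in G3, against 3578 and 2748 CPM in S2 (0.97, adjusted p = 0.000622), and *hth*, with 209 and 24.3 CPM in G3, against 98.0 and 9.35 CPM in S2 (1.18, adjusted p = 0.0404). The 2 replicate series differed more at *hth* than the lines did. *W*, the cell death gene also named *hid*, had 157 and 358 CPM in G3, against 81.5 and 81.3 CPM in S2 (1.53, adjusted p = 0.0088). *rut*, an adenylyl cyclase gene, had 513 and 386 CPM in the G3 libraries, against 160.1 and 160.4 CPM in the S2 libraries (1.47 ± 0.14 (SE), adjusted p = 0.000836; adjusted p = 0.0463 without the block).

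Of 86 cytoplasmic ribosomal protein genes 6 fell and none rose, 6.98% against 5.87% of all tested genes, and none was called without the block. Of the 86, 8 had a log2 fold change above 0. The median was -0.33, against -0.06 over all tested genes. *RpL10Ab* had 107 and 167 CPM in G3, against 181 and 307 CPM in S2 (-0.81, adjusted p = 0.00725), and both G3 libraries lay below both S2 libraries. This list rested on single libraries: without the second S2 library 2 members rose, 1 fell and the median was -0.03, and without the first S2 library 3 fell and the median was -0.57. No member of the mitochondrial ribosomal protein list (75 tested, median -0.24), the DNA replication list (40 tested), the Mediator and RNA polymerase II list (68 tested) or the heat shock list (34 tested) was called by edgeR. At an unadjusted p under 0.05 edgeR had 11, 3, 13 and 8 of them in the same order, against 21% of all tested genes. DESeq2 called 2 Mediator and RNA polymerase II genes, both higher in G3, and none in the other lists. In the cytoskeleton list 2 of 40 tested genes rose and 4 fell (15.0%, against 5.87% of all tested genes called), and none was called without the block. The actin gene *Act5C* fell, with 514 and 1035 CPM in the G3 libraries, against 1198 and 1877 CPM in the S2 libraries (-1.04 ± 0.12 (SE), adjusted p = 0.00302). The capping protein gene *cpb* and the GTPase gene *Cdc42* fell by 0.83 and 0.83, and *jar*, a myosin VI gene, rose by 0.68. Both G3 libraries were below both S2 libraries at *Act5C*, which was not called without the block (adjusted p = 0.465).

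The largest falls left few reads in G3, and several of these genes lie side by side. The transcript mgn00215, which overlaps *bves* on X, had 1.08 and 0.194 CPM in the G3 libraries, against 93.3 and 84.9 CPM in the S2 libraries (-6.85 ± 0.27 (SE), adjusted p = 7.85e-06; adjusted p = 0.00148 without the block). It was also low in A7, at 2.08 and 1.18 CPM, and high in B2, at 117 and 104.3 CPM. *sqz*, a zinc-finger transcription factor gene, had 1.67 and 1.55 CPM in the G3 libraries, against 36.2 and 23.8 CPM in the S2 libraries (-4.26 ± 0.21 (SE), adjusted p = 1.69e-05). CG7791 had 44.4 and 40.4 CPM in the G3 libraries, against 575 and 498 CPM in the S2 libraries (-3.67 ± 0.12 (SE), adjusted p = 4.31e-06), and *Caps*, a gene of calcium-regulated secretion on chromosome 4, had 4.33 and 5.05 CPM in G3, against 58.2 and 72.2 CPM in S2 (-3.78, adjusted p = 1.96e-05). At *sqz*, CG7791 and *Caps*, G3 was also below A7 and B2. *Ir41a*, which encodes an ionotropic receptor of sensory neurons, had 20.6 and 5.44 CPM in the G3 libraries, against 281 and 319 CPM in the S2 libraries, while A7 had 287 and 211 CPM and B2 had 261 and 292 CPM. Some of the falls were of neighbours. The 4 adjacent genes of 2L, CG33509, CG33510, CG33511 and *ppk13*, fell together between 21081127 and 21088751 with a median of -3.42. The phosphatase gene CG7180 (*Ptp36E*) and CG42750, in whose extent it lies, fell by 6.45 and 4.30; CG7180 had 1 count in G3, against 105 in S2. CG5568 and CG18586, whose extents overlap on 3L, fell by 5.80 and 3.87. CG13743 lies next to CG8193 on 2R and fell with it, by 3.43. Also among the 20 were CG6357 (-5.69), the homeobox gene *Dbx* (-3.95), CG13654 (-3.47) and the cytochrome P450 gene *Cyp6a8* (-3.03).

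Part of the falls lay in runs of neighbouring genes. The running median of 21 neighbouring tested genes was at or below -0.4 over at least 10 genes in 9 stretches, a rule set after the values were seen. These stretches hold 277 of the 9612 tested genes (2.88%) and 82 of the 262 falls (31.3%), which the choice of stretches by the same fold changes favours, and the other 180 falls lie outside. The median fall was -0.71 inside and -0.84 outside. The longest was on X from 19374284 to 20541780, where 80 of 89 tested genes were below S2, 38 fell and 1 rose, with a median of -0.56. The median there was -0.52 in the first replicate series and -0.58 in the second, and against the other clones it was -0.17 for G3 minus A7 and -0.61 for G3 minus B2. The second was on 2R from 3590680 to 3989756, where 48 of 52 genes were below S2, 18 fell and 2 rose, with a median of -0.58. Here G3 was below A7 by a median of -0.49 and below B2 by -0.50. A further 3 stretches of 2R, between 2561032 and 4929630, and another from 18494890 to 18761832 had medians between -0.44 and -0.58. In that from 4124774 to 4513685 the median was -0.66 in the first replicate series and -0.06 in the second. The genes of these stretches have unlike roles: *dome*, *Mer*, *Cdc42*, *Tak1* and *RpS10b* lie in the X stretch, and *sax*, *Gapdh1*, *drosha*, *phr* and *mus205* in that of 2R. DNA copy number was not measured here, and its part in these stretches was not tested.

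**Figure D5:**
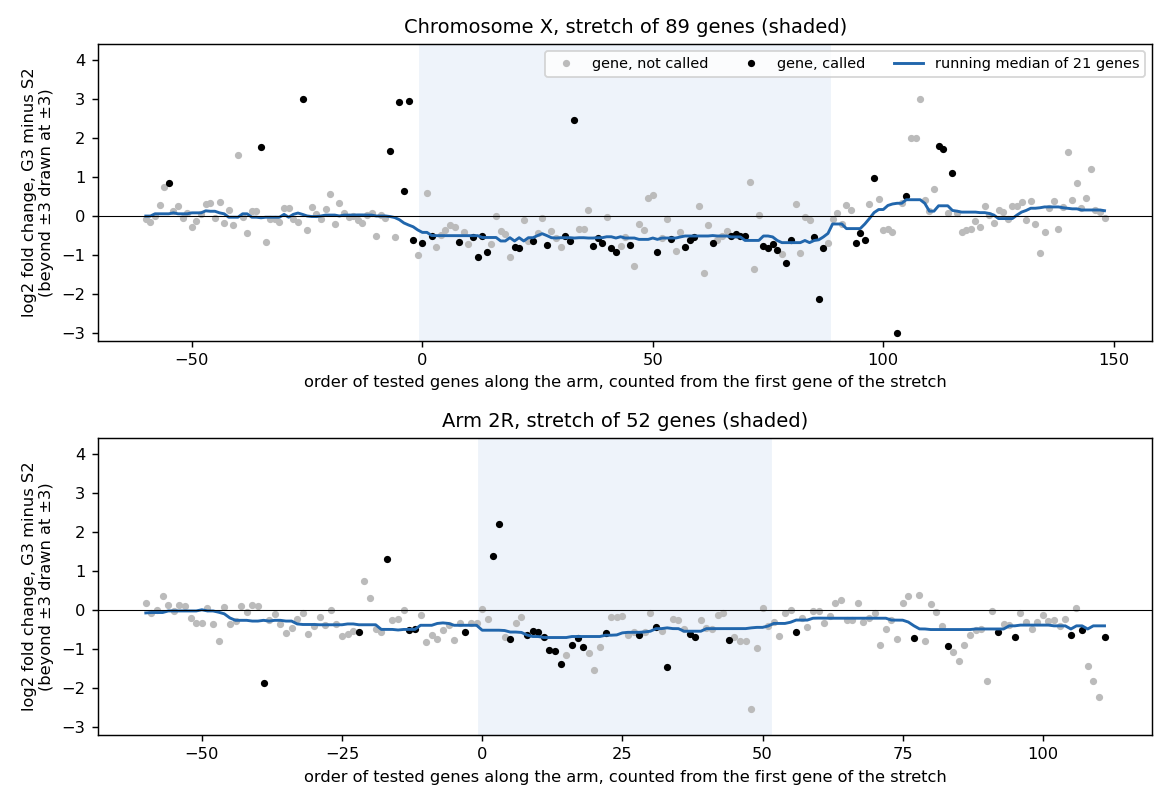
Log2 fold change, G3 minus S2, of tested genes in their order along X (above) and 2R (below), counted from the first gene of the stretch, which is shaded. Black points are called genes, grey points the others, and the line is the running median of 21 genes, which stays near -0.5 across the shaded 89 genes of X and 52 genes of 2R.

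By the same rule there were 2 stretches with a running median of at least 0.4, one at the centromere end of 2R from 18402 to 909460, with 7 rises and 1 fall among 18 genes, and one at the centromere end of 3L from 22991178 to 24531234, with 5 rises among 23 genes. They hold 41 tested genes (0.427% of those tested) and 12 of the 302 rises. The choice of stretches by the same fold changes favours this count of rises. *AGO3* and CG32230 (*ND-MLRQ*, a gene of the respiratory chain, at 0.67) lie in that of 3L. *Ir41a*, one of the largest falls, lies in that of 2R, as does *p120ctn*, a cadherin-binding gene that rose by 0.51. Merging called genes less than 10000 bp apart gave 258 loci for the rises, of which 220 held a single gene, and 192 loci for the falls, of which 154 held a single gene and the largest 11.

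Antisense counts, which made up between 8.59% and 11.0% of the reads on genes, were read from the same libraries. Of 12610 genes tested, 137 had more and 109 fewer antisense reads in G3 than in S2. These are 1.95% of the genes tested, 1.09% with more and 0.864% with fewer. Without the block 25 had more and 31 fewer, which is 0.444% of those tested, 0.198% and 0.246%. Of the 137 genes with more antisense reads, 42 overlap another gene whose own sense reads rose, and of the 109 with fewer, 27 overlap another gene whose sense reads fell. Such overlaps were not counted over all tested genes, so no excess can be read from these counts. Of the 302 genes with a sense rise, 293 were tested on the antisense strand, where 19 rose and 3 fell. Of the 262 genes with a sense fall, 257 were tested, and 2 rose and 19 fell.

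Set against the other clones, G3 differed from A7 at 287 genes, 2.99% of those tested, with 126 higher (1.31%) and 161 lower (1.67%). It differed from B2 at 370 genes, 3.85% of those tested, with 187 higher (1.95%) and 183 lower (1.9%). Without the block these counts were 20 (0.208%) and 23 (0.239%). Of the 302 rises against S2, G3 was also above or below A7 at 76 and B2 at 146, and both at 45. Of the 262 falls, the counts were 52, 134 and 38. The comparisons of A7 and B2 with S2 use the same S2 libraries. In them the genes that rose in G3 had a median of 0.53 in A7 and 0.21 in B2, and the genes that fell in G3 a median of -0.39 in A7 and -0.14 in B2.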

How the data were processed

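Nascent RNA was taken from a urea-washed chromatin pellet and sequenced as strand-specific libraries, 2 for each of G3, A7, B2 and S2. The authors aligned the reads to dm3 with Bowtie 0.12.7, per the processing notes, and deposited whole-number counts of sense and antisense reads for 15998 genes, neither normalized nor pooled. Whether introns were counted is not given in the sources used here. Replicate 2 of the labels was taken as the series that the column names number 3. Counts were fitted with edgeR 4.0.16 in R 4.3.3, with TMM factors (between 0.949 and 1.06), a coefficient for each line and the replicate series as a block, in all 8 libraries. Genes with at least 1 CPM in at least 2 libraries were tested, on each strand by itself, with Benjamini-Hochberg adjustment over all of them. CPM values are per TMM-scaled library. The column series separates the libraries, and same-numbered libraries of different lines deviated together from their line means, with r between 0.500 and 0.633 over the 6 pairs of lines. Log2 CPM of the 2 libraries of a line correlated across genes at 0.941 (S2) to 0.973 (A7).

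Genes named are *upSET*, the 20 largest rises and falls among called genes with non-overlapping lines and a higher average of at least 5 CPM, and up to 4 called members of each list. All members of the dosage compensation list, the list of *upSET* and partners of Rpd3 and Sin3A, and the heterochromatin list are named too. One of the largest falls is not reported here. The members of the comparison and the gene lists were chosen with earlier results of these data known, and lists are described by counts and medians only. Symbols follow the files, with current names from the Release 6 RefSeq table, which matched 9286 of the 9612 tested genes. Alternatives were no block, library size alone, DESeq2 1.42.0, the 4 libraries of G3 and S2, a filter of 5 CPM, no filter, and each library left out. The scripts were tested on simulated data. The ChIP-seq samples were not used here.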

Additional observations from a re-analysis of the deposited data

Results flagged for a closer look

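The change in G3 was set against that in the other clones at 39 of the 40 genes of largest change, by the contrasts G3 minus A7 and G3 minus B2 of the same edgeR fit with an adjusted p under 0.05. It differed from both clones at 16 genes, from A7 alone at 2 and from B2 alone at 14. The genes were chosen for their change in G3, and these contrasts use the same G3 libraries. Values below are log2 differences.

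G3 was above both clones at *roX1* (4.10 against A7, 7.04 against B2), CG11828 (4.30 against A7, 4.14 against B2), CG3679 (1.95 against A7, 1.89 against B2) and *Octbeta2R* (3.76 against A7, 4.58 against B2). Without the block CG11828 still differed from both clones (adjusted p = 0.00552 against A7, 0.00884 against B2). *roX1* then differed from B2 (0.0153) and not from A7 (0.0632). CG3679 (0.308 against A7, 0.233 against B2) and *Octbeta2R* (0.168 against A7, 0.0919 against B2) then differed from neither. G3 was below both at CG8193 (-8.82 and -7.01 against A7 and B2), CG6357 (-5.42 and -5.34 against A7 and B2), *Ir41a* (-4.19 and -4.37 against A7 and B2), *sqz* (-3.86 and -4.29 against A7 and B2) and *SoYb* (-4.24 and -2.42 against A7 and B2). It was also below both at *Caps* (-3.60 and -1.85), CG31875 (-4.18 and -2.46), CG7791 (-2.96 and -3.44), CG33509 (-3.66 and -4.04), CG13743 (-5.56 and -3.59) and *ppk13* (-2.69 and -2.91), with the value against A7 given before that against B2. *boi* was below A7 by -1.11 and above B2 by 4.60, and without the block it differed from B2 (adjusted p = 0.0202) and not from A7 (0.684).

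Against A7 alone G3 was below at CG5568 (-6.40) and CG18586 (-4.86). Against B2 alone G3 was above at CG41378 (6.35), *Cyp12c1* (3.33), *Slc45-1* (4.03), CG12512 (5.46), CG31601 (5.21), *Kal1* (3.04), CG17839 (2.94), *fu12* (3.01), *Gld2* (3.06), *Alk* (5.00) and CG5973 (4.32). It was below B2 alone at mgn00215 (-7.17), CG13654 (-2.81) and *Cyp6a8* (-2.85). With 2 libraries per line no single library could be tested for standing apart from its line.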

How the results depend on the processing

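The numbers pair the samples, so the block stood in the main design. Without the replicate block 58 genes were called against S2 on the sense strand and 56 on the antisense strand, 20 genes between G3 and A7, and 23 between G3 and B2, and of the 143 called genes compared across settings, 29 were still called and 114 were not. With only the 4 libraries of G3 and S2 the counts were 219 sense and 119 antisense, and with no filter on low counts 857 sense. DESeq2 called 128 antisense genes. Leaving out 1 library gave between 164 and 368 sense calls and between 99 and 512 antisense calls against S2, the highest antisense count without the second S2 library. Leaving out a G3 library gave 136 and 150 calls against A7, and 189 and 220 against B2, and no A7 or B2 library was left out. A line left with 1 library is assumed to vary like the others. The cause of these differences was not tested, beyond the fewer libraries or the larger number of genes tested. Library sizes alone moved the median of all tested genes to -0.17, against -0.06, and called 696 genes, 33.0% of them higher in G3, against 53.5% in the main fit and 66.9% with DESeq2.

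The 143 called genes kept their direction under each alternative in which they were tested, and *Dbx* was not tested under the stricter filter. Of the 40 genes of largest change, 23 stayed called without the block, 38 with 4 libraries, and between 32 and 37 with 1 library left out. The sign turned at genes near no change: CG1832 was at 0.012 with DESeq2, 0.024 with 4 libraries and 0.0064 with the stricter filter. With 1 library left out CG1832 lay between -0.028 and 0.032, *mof* between -0.20 and 0.035, *msl-1* between -0.25 and 0.0071, and *msl-3* between -0.54 and 0.18. Genes with few reads rest on counts near the limit of 3 counts, and their fold changes are uncertain accordingly.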
